A study of Homo sapiens with 2 samples.

Results

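BST2, RSAD2, IFI6, IFI27, IFI44, IFI44L, IFI35, TRIM22, SAMD9 and SAMD9L are 10 human genes that carry out antiviral work downstream of interferon. They were chosen by name, with earlier results of these arrays known, and their spots were found through the RefSeq accession that each spot carries. A spot could be named for 8 of the 10 genes, among 21743 genes named on the array, and IFI27 and SAMD9L had no spot named in this way. The measurements came from MRC-5 cells, a line of fibroblasts established from human fetal lung. The cells had received either control siRNA or periostin siRNA, the latter at 10 nM and for 48 h. One culture per condition was hybridized to a single-colour Agilent array of its own, 2 arrays in all. Neither condition was replicated, so no p-value is given, and each difference below compares these 2 arrays. The concentration of the control siRNA on the array is not given in the labels.

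Cells that sense viral nucleic acid release interferon, which binds its receptor on the same or neighbouring cells and activates the kinases JAK1 and TYK2. Their signal reaches the complex ISGF3, which contains STAT2 and IRF9 and binds a promoter element of paired GAAA repeats and switches on interferon-stimulated genes. The genes described here are among the products of that program. BST2, also called tetherin, holds budding enveloped viruses at the cell surface. RSAD2 encodes viperin, a radical SAM enzyme that makes a chain-terminating nucleotide. IFI6 and IFI27 encode small hydrophobic membrane proteins of one family. IFI44 and IFI44L are related genes and lie next to each other, IFI35 encodes a leucine zipper protein that pairs with NMI, and TRIM22 is a RING finger ubiquitin ligase of the tripartite motif family. SAMD9 and SAMD9L are neighbouring relatives that restrict poxviruses and limit growth.

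Since ISGF3 acts through this element, the promoters of the genes are shown first. Windows of 300 bases, 250 before the annotated start and 50 from it on, were taken from RefSeq on GRCh38.p14. Of the 10 genes 9 had at least one, and TRIM22, which had none, was not searched. GAAA followed by any 2 bases and GAAA again was searched, together with TTTC, any 2 bases and TTTC, which is the same motif on the other strand, and overlapping matches were counted separately. Of the 9 genes, 7 held a match in at least one window, against 4.38% of the 27305 genes with a window. Since the genes were picked by name from a program that acts through this element, the count describes them and is no independent evidence. Each stretch below runs 5′ to 3′ on the strand of its gene, ends before the annotated start, and has the matches in capitals.

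BST2, GRCh38.p14 chr19:17405720-17405785, minus strand: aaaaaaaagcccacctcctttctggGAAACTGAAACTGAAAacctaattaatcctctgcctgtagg
RSAD2, second start, GRCh38.p14 chr2:6877607-6877666, plus strand: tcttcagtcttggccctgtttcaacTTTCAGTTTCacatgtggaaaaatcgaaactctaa
IFI6, GRCh38.p14 chr1:27672251-27672373, minus strand: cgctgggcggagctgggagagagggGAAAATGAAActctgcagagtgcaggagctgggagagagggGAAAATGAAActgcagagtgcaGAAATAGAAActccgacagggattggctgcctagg
IFI27, first start, GRCh38.p14 chr14:94110603-94110675, plus strand: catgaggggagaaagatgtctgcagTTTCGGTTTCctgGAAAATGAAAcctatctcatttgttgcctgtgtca
IFI44, first start, GRCh38.p14 chr1:78649746-78649788, plus strand: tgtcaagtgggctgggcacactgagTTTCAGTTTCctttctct
IFI44L, GRCh38.p14 chr1:78620259-78620409, plus strand: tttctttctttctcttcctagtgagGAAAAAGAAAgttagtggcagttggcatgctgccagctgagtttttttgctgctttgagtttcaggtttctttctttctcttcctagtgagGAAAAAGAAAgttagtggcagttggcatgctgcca
SAMD9, GRCh38.p14 chr7:93118081-93118140, minus strand: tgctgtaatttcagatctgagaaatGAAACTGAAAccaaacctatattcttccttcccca

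The BST2 window held 2 overlapping matches that share their middle GAAA, beginning 130 and 124 bases before the start. IFI6 held 3, at 156, 115 and 93 bases before the start, of which the first pair have the same letters. IFI44L held 2 matches of identical letters, at 164 and 73 bases before the start. IFI27 held 1 match on either strand, at 108 and 95 bases before its first start. IFI44 and the second start of RSAD2 held 1 match each, on the other strand, and SAMD9 held 1, at 136 bases before its start. The IFI35 and SAMD9L windows held no match, nor did the window at the first start of RSAD2, which says only that these letters are not in those stretches.

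**Figure D1:**
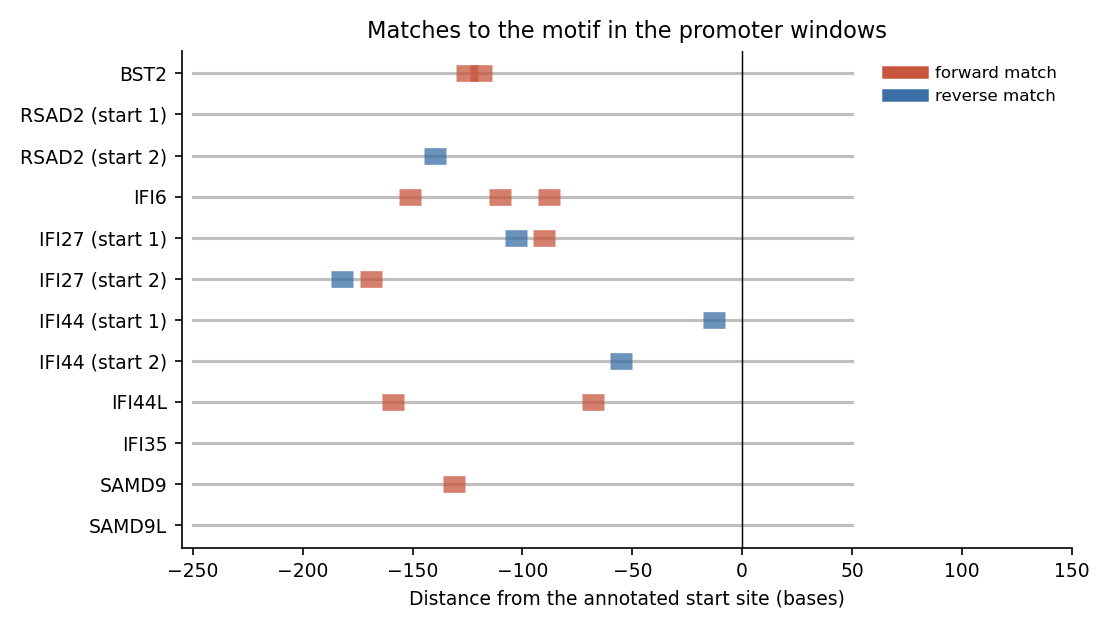
Position of each match to the paired GAAA repeat (forward) or its reverse complement (reverse) relative to the annotated start site, in bases, one line per promoter window from 250 bases before to 50 bases after the start. Every match lies before the start, and the windows of IFI35, SAMD9L and the first start of RSAD2 are empty.

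Periostin siRNA lowered its own target, which checks the labels. POSTN had a signal of 2638 in the control and 279.7 in the knockdown, a log2 ratio of -3.24 ± 0.20. Here and below, signals are background-subtracted spot intensities brought to a common 75th percentile of 377.2, and the error of a single spot is the one that the scanner software propagates. The arrays shared a slide, and of their 58717 spots 58% in the control and 58.9% in the knockdown were well above background. Among probes printed 10 times, the log2 ratio varied between spots with a pooled SD of 0.42 below a control signal of 20 (12 probes), 0.22 from 20 to 100 (86 probes) and 0.10 from 100 to 1000 (293 probes). None of these errors covers the difference between cultures. Each of the 8 fibroblast markers was detected in both conditions, with COL1A2 at 71040 and 61550.

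The antiviral effectors were higher with periostin siRNA in 7 of 8 cases, by up to 30-fold for BST2, where 54.5% of all genes had a ratio above 0, and among the 8 SAMD9 alone had one below 0. BST2, IFI44L, RSAD2, IFI6 and IFI44 were higher by more than 3-fold, the threshold used in the study, whereas IFI35, TRIM22 and SAMD9 were not. Of all 16052 genes with a ratio, 3.37% were higher and 2.75% were lower by more than 3-fold. TRIM22 was short of 2-fold as well, which 6 of the 8 passed against 7.97% of all genes, and IFI44 was short of 4-fold, which 4 of the 8 passed against 1.73%. The median log2 ratio of the 8 genes was 1.85, against 0.06 over all genes. Since the genes were chosen with these results known, the count and the median describe them and are no independent evidence of a direction. All 8 were well above background on both arrays and none carried a saturation or outlier flag. In RNA from a whole culture, a larger share of cells with a transcript and more transcript per cell cannot be told apart.

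**Figure D2:**
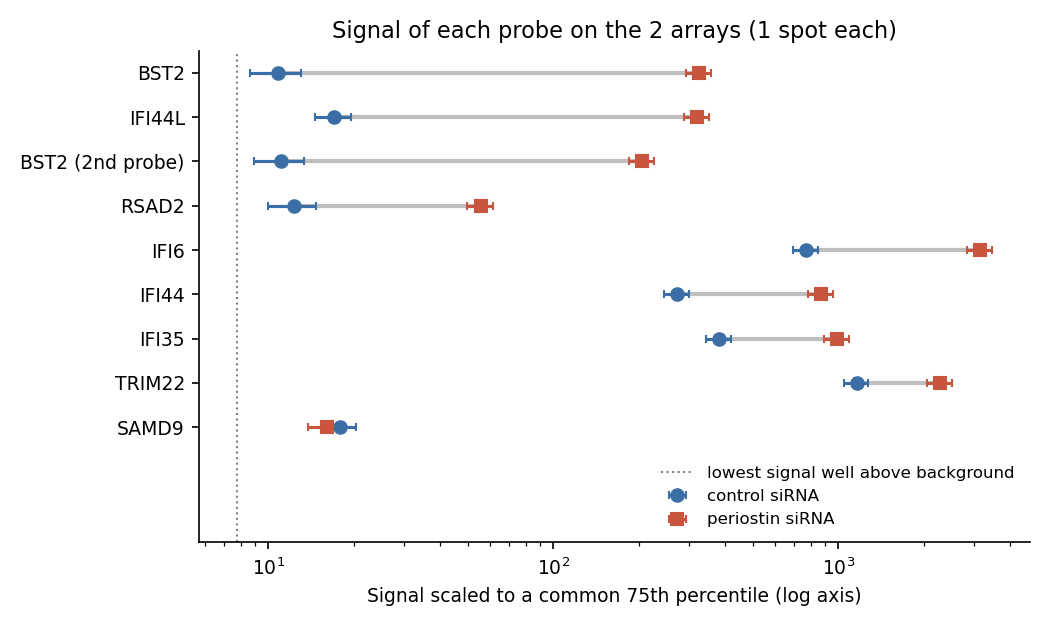
Scaled signal of each of the 9 probes on the control siRNA array (circles) and the periostin siRNA array (squares), on a log axis, with the propagated error of the single spot as bars, and a dotted line at the dimmest periostin siRNA spot called detected. The 2 signals lie apart for 8 probes, and those of SAMD9 overlap.

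The largest ratio belonged to BST2, the surface tether. Its brighter probe had a signal of 10.8 ± 2.18 in the control and 324.5 ± 32.5 in the knockdown, a log2 ratio of 4.91 ± 0.33. Only 3 of the 16052 genes had a larger one. A second BST2 probe gave 11.1 and 205, a log2 ratio of 4.21 ± 0.32, so that the probes of this gene, which rest on separate spots, placed it at 30-fold and 18.5-fold. On the control array the gene lay near the limit of detection. The raw brightness of the brighter probe there was 38.5, where the 308 negative control spots had a median of 29 and 2 of them were as bright as this spot. On the periostin siRNA array the raw brightness was 342.5, above every negative control spot. When an offset of 50 was added to both arrays in the background correction called normexp, the log2 ratio was 2.47.

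Viperin was also dim without the knockdown. RSAD2 had a signal of 12.3 ± 2.35 in the control and 55.7 ± 5.92 in the knockdown, a log2 ratio of 2.18 ± 0.32 or 4.54-fold. In raw brightness the spot went from 39 to 80, over local backgrounds of 23 on both arrays. On the control array 2 of the 308 negative control spots were as bright as this spot. RSAD2 was no longer past 3-fold with the normexp offset of 50, which gave 0.67, although it was with an offset of 0, which gave 1.79. CMPK2, the nucleotide kinase gene beside RSAD2, went from 23.9 to 78.3, a log2 ratio of 1.71 ± 0.23.

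IFI6, well above background in both conditions, had a ratio that hardly depended on the processing. It had 773 ± 77.3 in the control and 3147 ± 315 in the knockdown, a log2 ratio of 2.03 ± 0.20 or 4.07-fold. Across 9 other processing settings the log2 ratio stayed between 1.90 and 2.10. Only 1.62% of all genes had a higher one. IFI27L1 and IFI27L2, further members of the family, had log2 ratios of 0.39 and 0.73.

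The neighbours IFI44 and IFI44L were both higher with periostin siRNA, but by different amounts. IFI44L went from 17 ± 2.41 to 318.4 ± 31.9, a log2 ratio of 4.23 ± 0.25 or 18.7-fold, and 10 of the 16052 genes had a higher ratio. On the control array 1 of the 308 negative control spots was as bright as the IFI44L spot. IFI44 went from 271.3 ± 27.2 to 867.4 ± 86.8, a log2 ratio of 1.68 ± 0.20 or 3.2-fold. Part of the gap between the 2 genes depended on the background correction, since IFI44L gave 2.43 and IFI44 gave 1.51 with the normexp offset of 50. IFI44 was the member just past 3-fold, and it fell short of it under that correction and, at 1.55, when the arrays were scaled on the median.

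IFI35 and TRIM22 were higher by less than 3-fold. IFI35 went from 381.2 ± 38.1 to 990.3 ± 99, a log2 ratio of 1.38 ± 0.20 or 2.6-fold, which made it the member just short of 3-fold. Its binding partner NMI, measured by 10 spots, had a log2 ratio of 0.32 ± 0.07 (SD over 10 spots). TRIM22 went from 1160 ± 116 to 2274 ± 227, a log2 ratio of 0.97 ± 0.20 or 1.96-fold. Its relatives in the same gene cluster had smaller values, 0.47 for TRIM5, 0.38 for TRIM6 and 0.38 for TRIM34, and TRIM21 gave 0.52. A second, dimmer TRIM6 probe gave -0.28.

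SAMD9 did not follow the other genes. Its signal was 17.8 ± 2.42 in the control and 16.1 ± 2.31 in the knockdown, a log2 ratio of -0.15 ± 0.29, so that the difference was smaller than the error of the spot. The raw brightness of the spot was 50 on both arrays. The sign of the ratio depended on the processing, from -0.28 after quantile normalization to 0.14 with normexp and no offset, and a change smaller than the error of this dim spot would not have been detectable.

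The order of the ratios was only partly resolved. BST2 exceeded IFI44L by 0.68 with a combined error of 0.41, and the second BST2 probe equalled IFI44L within error. IFI44L exceeded RSAD2 by 2.05 with a combined error of 0.40, and this gap was the widest between neighbours in the order. RSAD2 and IFI6 differed by 0.16 (error 0.38), IFI6 and IFI44 by 0.35 (error 0.29), IFI44 and IFI35 by 0.30 (error 0.29) and IFI35 and TRIM22 by 0.41 (error 0.29), which is within the error or little beyond it. TRIM22 exceeded SAMD9 by 1.12 with a combined error of 0.35. Signals are not compared between genes, because the brightness of a spot depends on its probe.

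**Figure D3:**
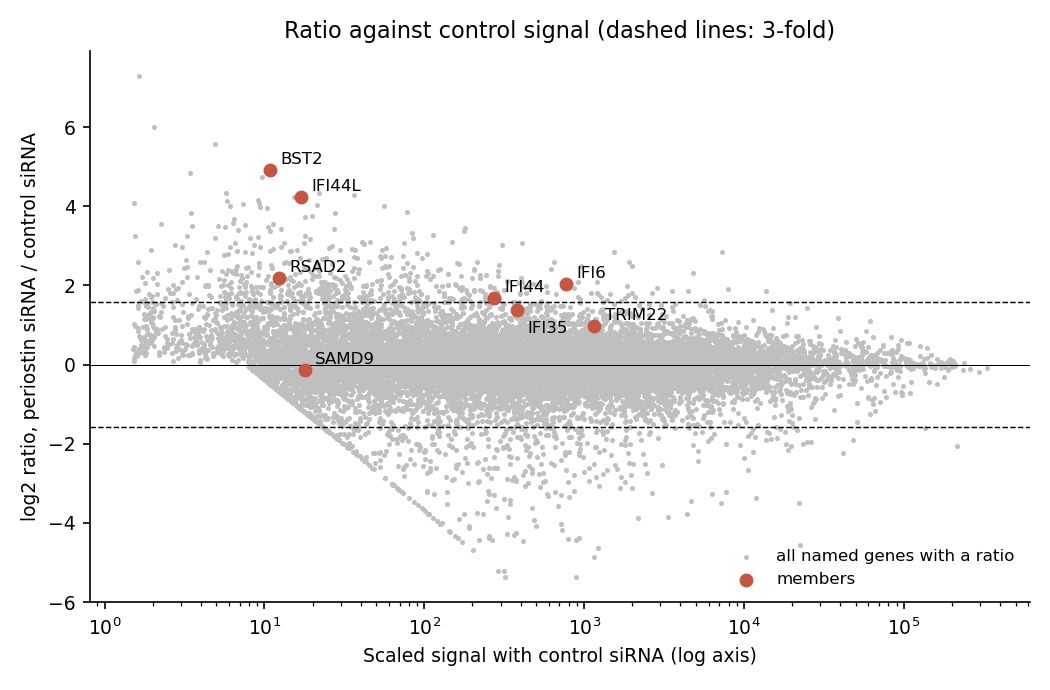
Log2 ratio, knockdown over control, against the scaled control siRNA signal (log axis) for all 16052 named genes with a ratio (grey) and the 8 members (red), with dashed lines at 3-fold. Genes detected on 1 array are drawn at their bound, which gives the slanting lower edge. The spread of the grey points widens towards dim signals, and IFI6, IFI44, IFI35 and TRIM22 lie above 0 where the spread is narrow.

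Brightness mattered for how unusual a ratio was. Among all genes with a control signal below 20, 11.9% were higher by more than 3-fold, and BST2, IFI44L and RSAD2, though not SAMD9, were among them. Among all genes with a control signal of 100 or more, 1.06% were. The 4 members in this range were IFI6, IFI44, IFI35 and TRIM22, of which 2 passed 3-fold and 4 had a ratio above 0, as 51.9% of the genes of that brightness had. Their median log2 ratio was 1.53, against 0.02 for those 11181 genes.

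**Figure D4:**
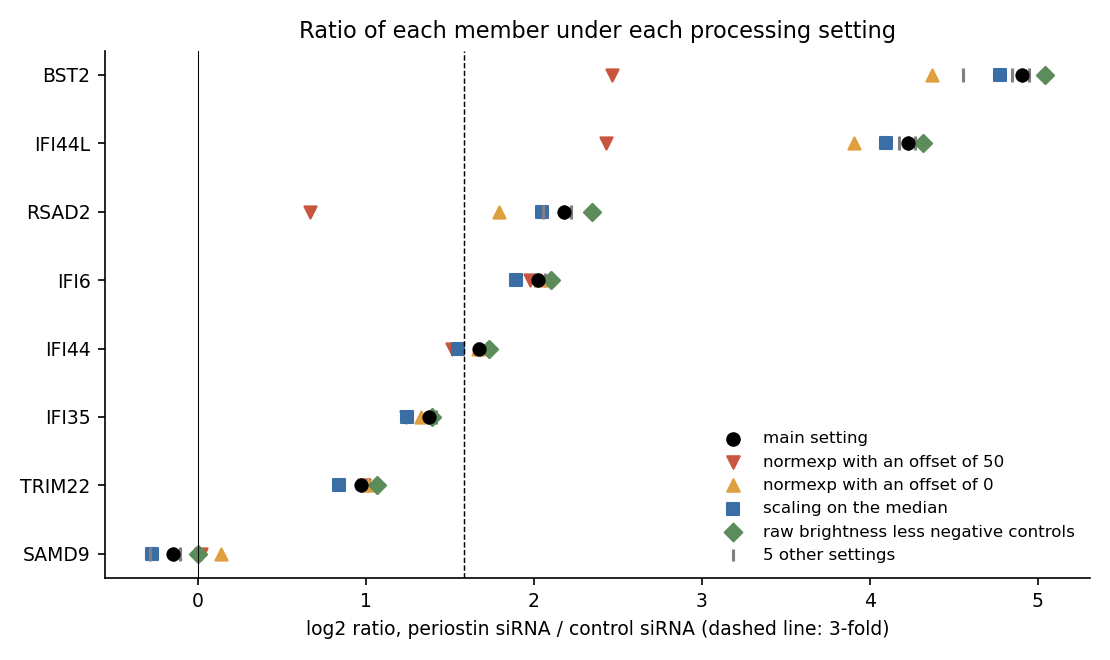
Log2 ratio of each member under the main setting (black circles) and 9 alternatives, with a dashed line at 3-fold. The legend names the normexp, median-scaling and raw-brightness settings, and the others are drawn alike as grey ticks. The normexp offset of 50 draws the dim genes BST2, IFI44L and RSAD2 towards 0. IFI6, IFI44, IFI35 and TRIM22 move less, although IFI44 falls short of the dashed line.

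The processing changed the size of the ratios for the dim genes more than their sign. BST2, IFI44L and IFI6 were past 3-fold under each of the 9 alternatives, and all 7 genes with a ratio above 0 kept it above 0. Taking the raw brightness less the median of the negative control spots, without any scaling, gave 33-fold for the brighter BST2 probe and 14.7-fold for the other, 19.9-fold for IFI44L, 5.1-fold for RSAD2, 4.29-fold for IFI6 and 3.33-fold for IFI44. The same measure gave 2.63-fold for IFI35, 2.1-fold for TRIM22 and 1-fold for SAMD9.

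Upstream of these genes, the interferon receptor and signalling chain was above 0 in the 6 genes reported, against 54.5% of all genes. None of the 6 passed 3-fold, where 3.37% of all genes were higher by that much. The receptor chains IFNAR1 and IFNAR2 gave 0.15 and 0.36, and the kinases JAK1 and TYK2 gave 0.10 and 0.18. Each had an error of 0.20, which for IFNAR1, JAK1 and TYK2 exceeded the value itself. Scaling on the median moved the median of all genes by -0.13, a larger amount than the JAK1 ratio. Of the ISGF3 subunits, STAT2 gave 0.34 ± 0.20 and IRF9 1.26 ± 0.20. IRF9 thus went from 839.8 to 2017, the largest ratio of the 6. The median of these 6 genes was 0.26.

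The interferon genes themselves were mostly not detected. Of 8 with a spot, IFNA2, IFNB1, IFNG, IFNK, IFNL1 and IFNL3 were not well above background on either array. IFNE was above it with periostin siRNA alone, at 17.8, and was at least 2.36-fold higher. IFNL2, which shares sequence with IFNL3, gave 30.3 and 35.6, a log2 ratio of 0.23 ± 0.24. IFNA1 had no spot named.

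Among regulators of the response, SOCS3, an inhibitor of cytokine signalling, was lower by 3.78-fold, with a signal of 2256 and 597.6. Its relative SOCS1 gave 1.58, just short of 3-fold. IRF7, the transcription factor that amplifies interferon production, was not past 3-fold at 1.25. USP18 and IRF1 gave -0.28 and -0.14.

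Among the sensors of nucleic acid, 3 of 7 genes with a ratio were higher by more than 3-fold, against 3.37% of all genes. They were IFIH1 at 2.42, TLR3 at 1.92 and DHX58 at 1.60. DHX58 was barely past the threshold, at 3.02-fold with a log2 error of 0.20. CGAS, the sensor of cytosolic DNA, was the lowest at -0.97, from 154.2 to 78.6. The median of the sensors was 1.07. ZBP1 was not well above background on either array.

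Of 28 other interferon-induced effectors, 8 were higher by more than 3-fold, none was lower, and 25 had a ratio above 0, with a median log2 ratio of 1.02. As a background, 3.37% of all genes were higher by more than 3-fold and 54.5% had a ratio above 0, and among those with a control signal below 20, as OAS1, EPSTI1 and HERC6 had, 11.9% were past 3-fold. The 8 were OAS2 at 3.82 by the brightest of its 3 probes and 2.44 by the lowest, XAF1 at 3.43, OAS1, MX1 at 3.07, RTP4 at 2.26, EPSTI1 at 2.18, IFIT1 at 1.92 and HERC6 at 1.68. OAS1, which makes the messenger that activates RNase L, was seen with periostin siRNA alone and was at least 9.51-fold higher. EPSTI1 was dim and varied between its 10 spots with an SD of 0.73, and a second HERC6 probe fell short of 3-fold at 1.38. IFIT5, at -0.20, was the lowest of the list. With the normexp offset of 50, 5 genes were higher by more than 3-fold in place of 12, which are the 3 sensors, these 8 effectors and CMPK2.

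**Figure D5:**
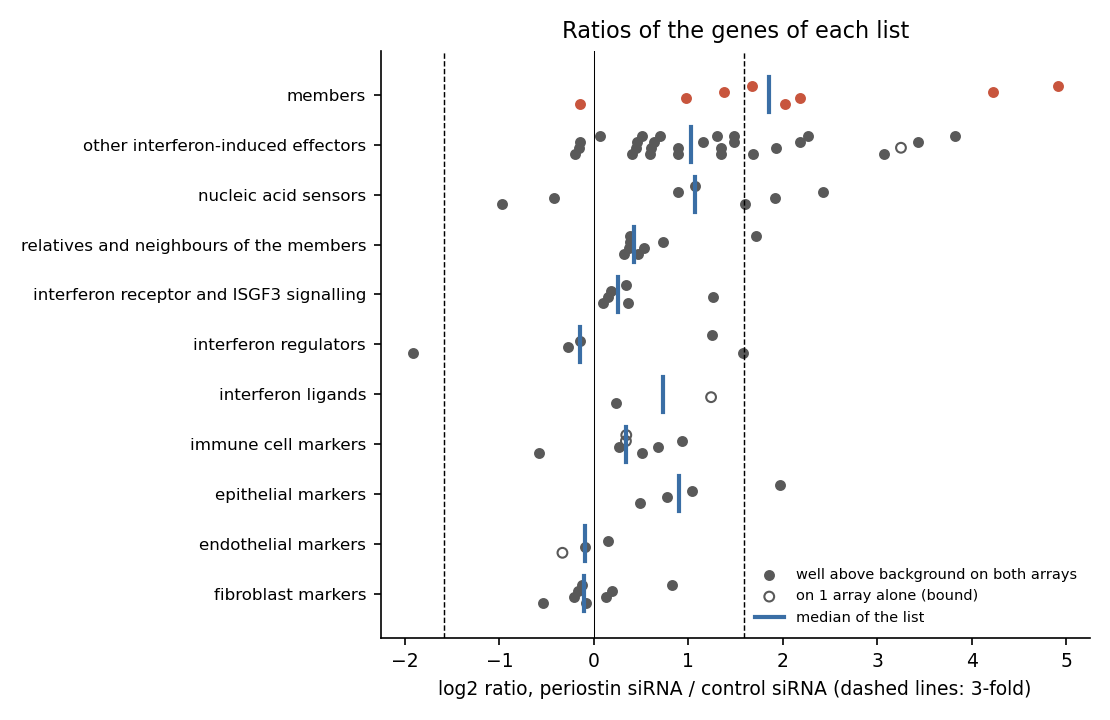
Log2 ratio of each gene of the members, the interferon pathway lists and the cell type markers, with open circles for bounds, blue bars for medians and dashed lines at 3-fold. The members spread from -0.15 to 4.91, and the receptor and ISGF3 genes lie between 0.10 and 1.26.

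Markers of other cell types were read beside these values. Of the 10 immune cell markers 9 had a spot and 7 had a ratio. Of the 7 ratios 6 were above 0, against 54.5% of all genes, with a median of 0.34. None was past 3-fold, where 3.37% of all genes were higher by that much. CD3D, the 1 below 0, went from 18 to 12.1, a log2 ratio of -0.58 ± 0.32. TYROBP gave 0.26, and CD3E, detected with periostin siRNA alone, was at least 1.26-fold higher. The summed signal of the 9 with a spot was 1994 in the control and 3219 in the knockdown. A sum follows its brightest probes, here CD68, going from 1528 to 2451, and CD14, from 286.7 to 548.5. MS4A1 and LAPTM5 were not well above background on either array, CD74 was at 2.81 and 9.57 and detected with periostin siRNA alone, which gives a bound of at least 1.27-fold, and PTPRC, which marks all leukocytes, was at 17.6 and 25.1 with 4 of its 5 probes not well above background. The 4 epithelial markers with a ratio were all above 0, against 54.5% of all genes, with a median of 0.90. EPCAM, from 34.6 to 135.1, was past 3-fold at a log2 ratio of 1.97, KRT19 gave 1.04, KRT8 gave 0.77 by its brightest probe and 0.08 by its lowest, and KRT18 gave 0.48. The summed signal of the 5 epithelial markers was 4003 and 6024, mostly from KRT18 at 3048 and 4264, and CDH1 was not well above background. That of the 4 endothelial markers was 133.4 and 130.2. The part of other cell types in the ratios of the antiviral genes was not tested.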

How the data were processed

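Total RNA of 2 MRC-5 cultures was labelled with Cy3 and hybridized to 1 array per condition. The deposited intensity values are scanner output of Feature Extraction 11.5.1.1, as the file headers give it (12.0.3.1 in the submitters' processing notes), background-subtracted and detrended but not scaled between arrays. The array was annotated on hg19. A second deposited table holds normalized intensity values by the authors, which for the 49697 probes printed once is the scanner value times 1 factor per array, 3.65 and 3.54, within 0.1%. It was used as an alternative, and its method is not given in the sources used here. The flags for spots well above background, saturated or uneven are the deposited ones.

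Each array was scaled on log2 to its 75th percentile over 58717 non-control spots (371.6 and 383 before scaling), and spots of one probe were averaged. Spots with an outlier flag were kept; of the genes described, only NMI had one, 1 of its 10 spots, and without flagged genes 3.35% of 15810 genes were higher by more than 3-fold. The brightest probe stood for a gene. A gene well above background on 1 array alone was given a bound. For the other array, its own signal there or the detection limit of that other array was used, whichever was higher. A gene well above background on neither array was given no ratio. Names came from RefSeq of GRCh38.p14 by accession, which matched 65.1% of the spots, and that build is used for promoters only. Python 3.11.15, numpy 2.4.6, pandas 2.3.3, R 4.3.3 and limma 3.58.1 were used, and the ratio calculation was tested on simulated data. Precision is limited by having only 2 arrays, and no test was run.

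The genes and the lists were chosen with earlier results of these data known. Named were all members with every probe, POSTN, the receptor and ISGF3 list (1 of its genes is not reported here), and of each other pathway list the genes past 3-fold with the lowest and the highest. NMI, CMPK2, the TRIM and IFI27L relatives, other regulators and the markers were named besides, after their values were seen.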

Additional observations from a re-analysis of the deposited data

How the results depend on the processing

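Most values moved with normexp at an offset of 50. It left 3 of the 8 genes past 3-fold, a median log2 ratio of 1.38 for them, -2.99 for POSTN and 5 of the pathway genes and relatives past 3-fold in place of 12. Over all genes it called 143 higher and 190 lower in place of 541 and 441, so that 42.9% of the calls were higher ones against 55.1%, and 0.892% of the genes were higher by more than 3-fold. The offset adds the same amount to both arrays and so draws dim ratios towards 0 by construction. With median scaling, the all-gene median moved by -0.13. This gave a median of 1.72 for the 8 genes and left 4 past 3-fold. The other alternatives were no scaling, scaling on spots well above background on both arrays, quantile normalization, the authors' table, the mean over probes and the filter on dim probes, and each left 5 genes past 3-fold. Of these, the filter removed none of the 8 genes and could not change the count. The mean over probes could change BST2 alone, and the authors' table differs from the scanner values only by 1 factor per array. So did normexp with an offset of 0 and the raw brightness less negative controls, both chosen after seeing the data. At 2-fold 6 genes were past the threshold and at 4-fold 4.

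No paired analysis was possible because there was only 1 array for either siRNA. Leaving out a replicate, or taking the shared slide as a block, could not be done either. Signals below 20 lie near background, which limits BST2, IFI44L, RSAD2 and SAMD9.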
